A study of Homo sapiens with 12 samples.

Results

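Messenger RNA was sequenced from LNCaP-shPRMT5 cells, a line of the androgen-sensitive human prostate cancer cell LNCaP that carries a short hairpin RNA against PRMT5 switched on by doxycycline (Dox). The effect described here is that of the knockdown averaged over all 6 pairs of a Dox+ and a Dox- library, so it used all 12 libraries of the study. The 4 groups of 3 libraries were irradiated knockdown, irradiated control, non-irradiated knockdown and non-irradiated control. Knockdown cells received Dox at 1 µg/mL every 48 h and control cells none, while irradiated cells were exposed to 2 Gy and collected 24 h later. All groups carried the hairpin construct, in 1 cell line. Dox and the hairpin always came together, so their effects cannot be told apart, and no control hairpin was analysed here. Nothing in the labels states whether replicate libraries are from different cultures. The p-values therefore reflect the spread among these libraries alone, and that spread may be technical.

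A pair was the knockdown and the control library that share a replicate number within an irradiation state. One model with the pair as a block and a single knockdown term was fitted to 17191 of the 63299 genes in the tables. A gene was called when its Benjamini-Hochberg adjusted p in edgeR's quasi-likelihood test was under 0.05, and every adjusted p below is from that test unless another setting is named. A gene was counted as common when it was called and its log2 difference, knockdown minus control, had 1 sign in all 6 pairs. Common genes numbered 4091, which is 23.8% of the genes tested.

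PRMT5 is the enzyme responsible for most symmetric dimethylation of arginine. It works in a complex with WDR77, called the methylosome, and takes its substrates through adaptors such as CLNS1A (pICln), COPRS and RIOK1. Its substrates include histones and the Sm proteins at the core of the spliceosome. In prostate cancer cells it has been studied as a regulator of transcription, splicing and the repair of DNA breaks.

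Total counts per library ran from 14801939 to 33158865. A count of 0 in a library allows up to 3 counts, or 0.0905 to 0.203 CPM of the library total, and this limit covers counting error only. CPM values below are counts scaled to library totals with TMM factors, and they compare libraries for 1 gene, not genes with each other. Luminal prostate markers summed to 9053 to 10393 CPM in the knockdown libraries and 10249 to 11256 CPM in the control libraries. Markers of fibroblasts summed to 17.4 to 32.8 CPM in knockdown and 13.5 to 34.4 CPM in control libraries, with COL1A2 and PDGFRA at 0 in all 12. Leukocyte markers summed to 69.4 to 242 CPM in knockdown and 48.8 to 259 CPM in control libraries. LCP1 gave most of that sum, and CD3E, CD3D, CD2 and MS4A1 were at 0. Both libraries of irradiated pair 1 stood apart from the other replicates of their groups. The chi-square of their counts per gene against those replicates was 56.2 to 129, against 8.96 to 29.6 between all other replicates. Results are therefore given with and without this pair where it matters.

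PRMT5 itself checked the labels. In the knockdown libraries it had 24.9 CPM at the lowest, 28.9 at the median and 32.8 at the highest, against 186, 189 and 230 CPM in the control libraries. The 6 knockdown libraries lay far below the 6 controls in both irradiation states. PRMT5 fell by 2.77 on the log2 scale (SE 0.06, adjusted p = 3.29e-11), to 14.7% of control. The 6 pair differences averaged -2.76 ± 0.13 (SD, n = 6), and the exact 2-sided sign-flip permutation test gave p = 0.03125, the smallest that 6 pairs allow. The gene lies on chromosome 14, 22920511 to 22929585 (GRCh38), and 27.1% of its exon positions overlap another gene.

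**Figure D1:**
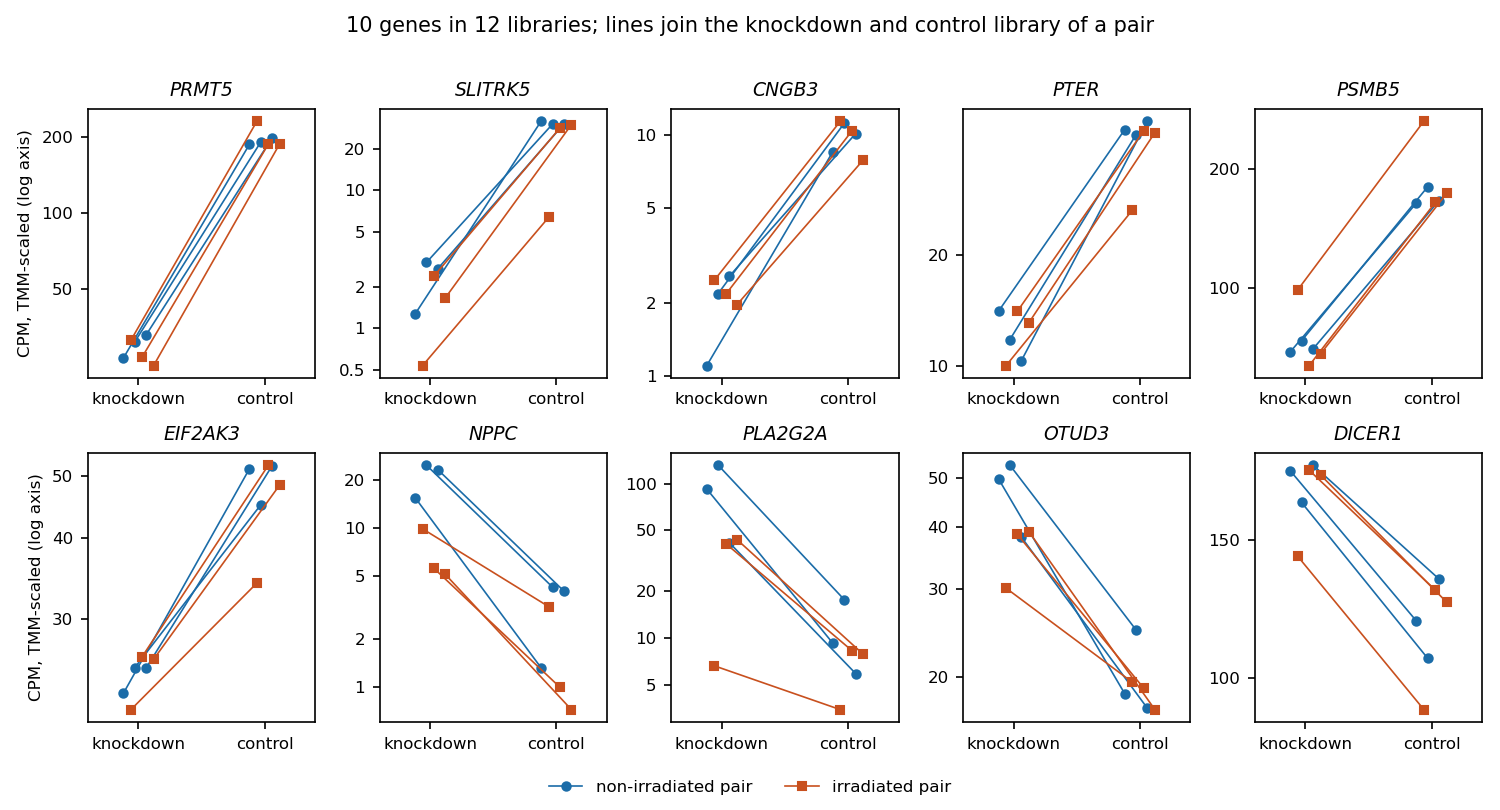
CPM on a log axis for PRMT5, 5 other genes that fell and 4 that rose, with the 6 knockdown libraries left of the 6 control libraries in each panel; lines join the libraries of a pair, circles are non-irradiated and squares irradiated. PRMT5 sits between 24.9 and 32.8 CPM in all knockdown libraries and between 186 and 230 CPM in all controls.

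The knockdown moved many genes, most by little, and its large common effects were decreases. Of all tested genes 30.8% were called, 15.2% higher and 15.6% lower in knockdown cells. A single sign in all 6 pairs, whatever the test, was found for 28.9% of tested genes. Genes called higher with 1 sign numbered 2012 (11.7%), and genes called lower with 1 sign numbered 2079 (12.1%). The median size of the common effect was 0.31 on the log2 scale among the higher genes and 0.47 among the lower ones. Common genes past 2-fold numbered 70 higher and 295 lower. In every single pair, 27 genes were over 1.5-fold higher and 153 over 1.5-fold lower, and 3 higher and 25 lower passed 2-fold in each pair. The 6 knockdown libraries did not overlap the 6 control libraries for 526 genes (3.06%). Of these, 522 were common genes, 193 higher and 329 lower.

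Common genes that rose drew more reads than those that fell, with no correction for gene length. Their median over genes of the mean CPM of the 12 libraries was 50.6, against 17.3 for the common genes that fell and 16.7 for all tested genes. Protein-coding genes made up 85.5% of the common higher and 86.1% of the common lower genes, against 74.2% of all tested genes. Genes at higher counts are tested with less error, and the part of depth in these shares was not tested.

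The sign of a call held in pairs that the fit had not seen, least so in irradiated pair 1. When 1 pair was left out and genes were called from the other 5, the called genes kept their sign in the left-out pair in 87.8%, 96.2% and 94.8% of cases for non-irradiated pairs 1, 2 and 3. For irradiated pairs 1, 2 and 3 the shares were 72.1%, 98.3% and 97.8%. Among all tested genes the corresponding shares ran from 60.5% to 77.3%. Effects were also smaller in irradiated pair 1. Genes called higher from the other 5 pairs had a median log2 difference of 0.12 there and 0.30 in those 5, and genes called lower had -0.19 there and -0.45 in those 5. A further 1209 called genes had mixed signs. For 728 of them irradiated pair 1 was the only pair with the opposite sign, and for 235 it was non-irradiated pair 1. Without irradiated pair 1 the call count was 6056, of which 5517 had 1 sign in the remaining pairs.

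**Figure D2:**
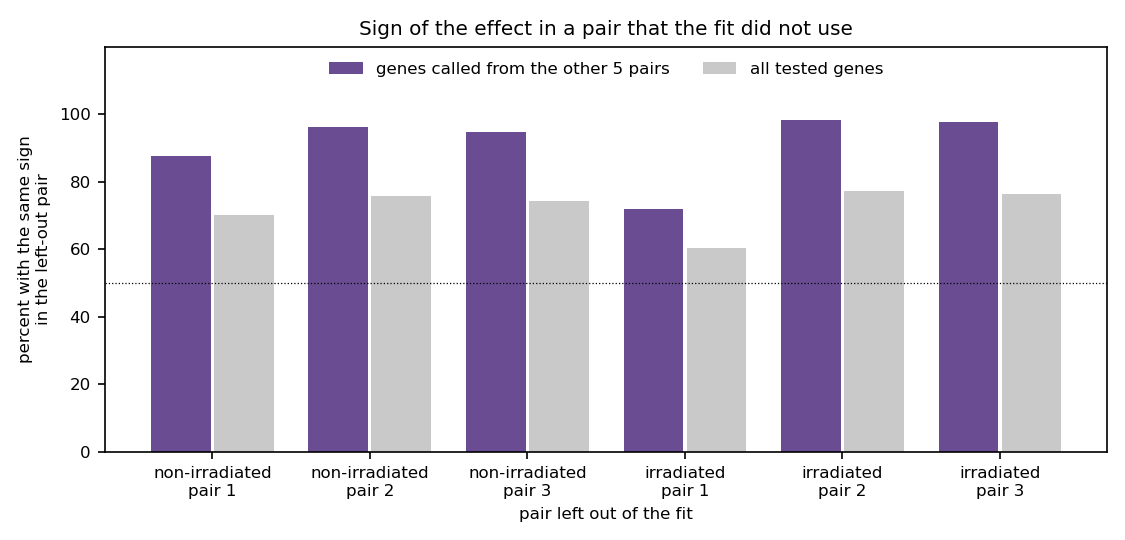
Percent of genes whose knockdown effect had the same sign in a pair left out of the fit, for genes called from the other 5 pairs (dark bars) and all tested genes (grey bars), with a dotted line at 50%. The dark bars stand between 72.1% and 98.3%, lowest for irradiated pair 1, and each is above its grey bar.

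A difference of the knockdown effect between irradiated and non-irradiated cells was called for 0 of 17191 genes (0%) in edgeR's quasi-likelihood test of the interaction, whose smallest adjusted p was 0.173. At an unadjusted p under 0.05 there were 2093 genes, or 12.2%. The test had 4 residual degrees of freedom, so it does not show that the effects were alike. The 2 irradiation states also came in separate count tables.

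The largest common decrease among the genes named, larger than that of PRMT5, was in SLITRK5, a membrane protein that organises synapses in neurons. It had 0.538 CPM at the lowest, 2.03 at the median and 3.00 at the highest in knockdown libraries, against 6.37, 29.99 and 31.7 CPM in controls. It lies on chromosome 13, 87672615 to 87696272 (GRCh38), and fell by 3.75 (log2, SE 0.16, adjusted p = 2.09e-07). The groups did not overlap, and the lowest value of each group came from irradiated pair 1. CNGB3, a subunit of the cyclic nucleotide-gated channel of cone photoreceptors, had 1.10, 2.19 and 2.60 CPM (lowest, median, highest) in knockdown and 7.89, 10.3 and 11.5 CPM in control libraries. It fell by 2.26 (SE 0.13, adjusted p = 4.97e-07), again without overlap.

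PTER, a phosphotriesterase-related protein, and PSMB5, a catalytic subunit of the proteasome core, showed similar decreases in every pair. PTER had 10.0, 12.4 and 14.1 CPM in knockdown and 26.3, 42.9 and 45.9 CPM in control libraries, and fell by 1.72 (SE 0.09, adjusted p = 2.09e-07). PSMB5 had 63.5, 69.4 and 98.9 CPM in knockdown and 164, 170 and 265 CPM in control libraries. Both genes separated the groups fully. PSMB5 fell by 1.32 (SE 0.05, adjusted p = 9.25e-09), with pair differences between -1.42 and -1.25, the narrowest spread of any gene named here for its size. It lies on chromosome 14, 23016543 to 23035230 (GRCh38), 87 kb from PRMT5.

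Other large common decreases followed. TMPRSS11E, a membrane serine protease, fell by 2.07 (SE 0.26) and MAATS1, a protein of cilia and flagella, by 1.84 (SE 0.15). Both separated the groups, but the count of MAATS1 is uncertain, since it shares 30.7% of its 50-base words with other genes. BOLA3, which helps to place iron-sulfur clusters on mitochondrial enzymes, had 2.26, 2.90 and 8.33 CPM in knockdown and 7.35, 9.85 and 24.0 CPM in control libraries and fell by 1.76 (SE 0.11). Its groups overlapped because both libraries of irradiated pair 1 were high, yet every pair difference lay between -2.09 and -1.49. AKAP5, a scaffold that anchors protein kinase A, fell by 1.78 (SE 0.30). HPGD, the enzyme that inactivates prostaglandins, fell by 1.76 (SE 0.12). ZMAT1, a zinc finger protein, fell by 1.60 (SE 0.13) and SLC22A10, a member of the organic anion transporter family, by 1.55 (SE 0.24). FAM234B fell by 1.502 (SE 0.08) and was named for its weakest pair, at -1.19. SMAD9, which carries signals from bone morphogenetic protein (BMP) receptors, fell by 1.60 (SE 0.34, adjusted p = 0.0194). Its difference was -0.22 in irradiated pair 1 and between -2.33 and -0.98 in the other 5. SMAD9 was no longer called without non-irradiated pair 2 or 3 (adjusted p = 0.0559 and 0.0629) or without irradiated pair 2 or 3 (0.0652 and 0.0608).

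Fewer genes rose to such sizes. The largest common increase was in RP11-693J15.6, annotated as a long intergenic non-coding RNA on chromosome 12, 91634887 to 91635644 (GRCh38). It had 3.64, 13.7 and 14.9 CPM in knockdown and 0.880, 1.36 and 2.44 CPM in control libraries and rose by 2.82 (log2, SE 0.30, adjusted p = 6.00e-04). NPPC, the precursor of C-type natriuretic peptide, had 5.12, 12.8 and 25.0 CPM in knockdown and 0.720, 2.26 and 4.26 CPM in control libraries. It rose by 2.54 (SE 0.20, adjusted p = 2.42e-05), and like the non-coding RNA it did not overlap between groups. PLA2G2A, a secreted phospholipase A2, had 6.61, 42.3 and 132 CPM in knockdown and 3.44, 8.07 and 17.7 CPM in control libraries. It rose by 2.53 (SE 0.30, adjusted p = 2.50e-03). The groups overlapped through the knockdown library of irradiated pair 1, where the difference was 0.93.

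CLEC7A, the dectin-1 receptor for fungal glucans, rose by 1.91 (SE 0.22) and S1PR3, a receptor for sphingosine-1-phosphate, by 1.24 (SE 0.11). SMAD6, an inhibitor of BMP signals, rose by 1.29 (SE 0.20), with differences of 0.44 to 1.97 over the pairs. SYT4, a synaptotagmin of secretory vesicles, had 41.6, 74.8 and 107 CPM in knockdown and 9.72, 23.6 and 29.7 CPM in control libraries and rose by 1.69 (SE 0.42, adjusted p = 0.0336). CBLN2, a secreted synapse organiser, rose by 1.22 (SE 0.30, adjusted p = 0.0322). Neither of these last genes was called without non-irradiated pair 1 (adjusted p = 0.0599 for SYT4 and 0.0571 for CBLN2), non-irradiated pair 2 (0.0862 and 0.0855), irradiated pair 2 (0.0895 and 0.103) or irradiated pair 3 (0.0821 and 0.0966).

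Among the increases named for size, those of OTUD3 and DUSP4 had the smallest SE. OTUD3, a deubiquitinase, had 30.1, 38.9 and 53.2 CPM in knockdown and 17.2, 18.8 and 24.9 CPM in control libraries and rose by 1.08 (SE 0.09, adjusted p = 6.90e-06). DUSP4, a phosphatase that switches off MAP kinases, had 99.0, 137 and 164 CPM in knockdown and 48.7, 82.6 and 95.9 CPM in control libraries and rose by 0.78 (SE 0.06, adjusted p = 3.74e-06). Neither gene overlapped between groups, and DUSP4 was the only gene of those named for size whose largest increase, 1.02, was in irradiated pair 1. ZNF703, a transcriptional corepressor, rose by 1.21 (SE 0.13) and BTG1, an antiproliferative factor, by 1.18 (SE 0.14). BCL3, a nuclear protein of the IκB family, rose by 1.15 (SE 0.12) and LDOC1 by 1.15 (SE 0.17). In irradiated pair 1 the difference was 0.53 for ZNF703, 0.44 for BTG1, 0.54 for BCL3 and 0.26 for LDOC1. Their other pairs were all at 1.00 or more. Just outside the genes named by size lay MAP3K14, at 1.13, and RNF14, at -1.51. Without the replicate block CLEC7A, SMAD6, S1PR3, CBLN2, HPGD, ZMAT1 and SLC22A10 were not called, with adjusted p from 0.0512 for S1PR3 to 0.208 for HPGD.

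**Figure D3:**
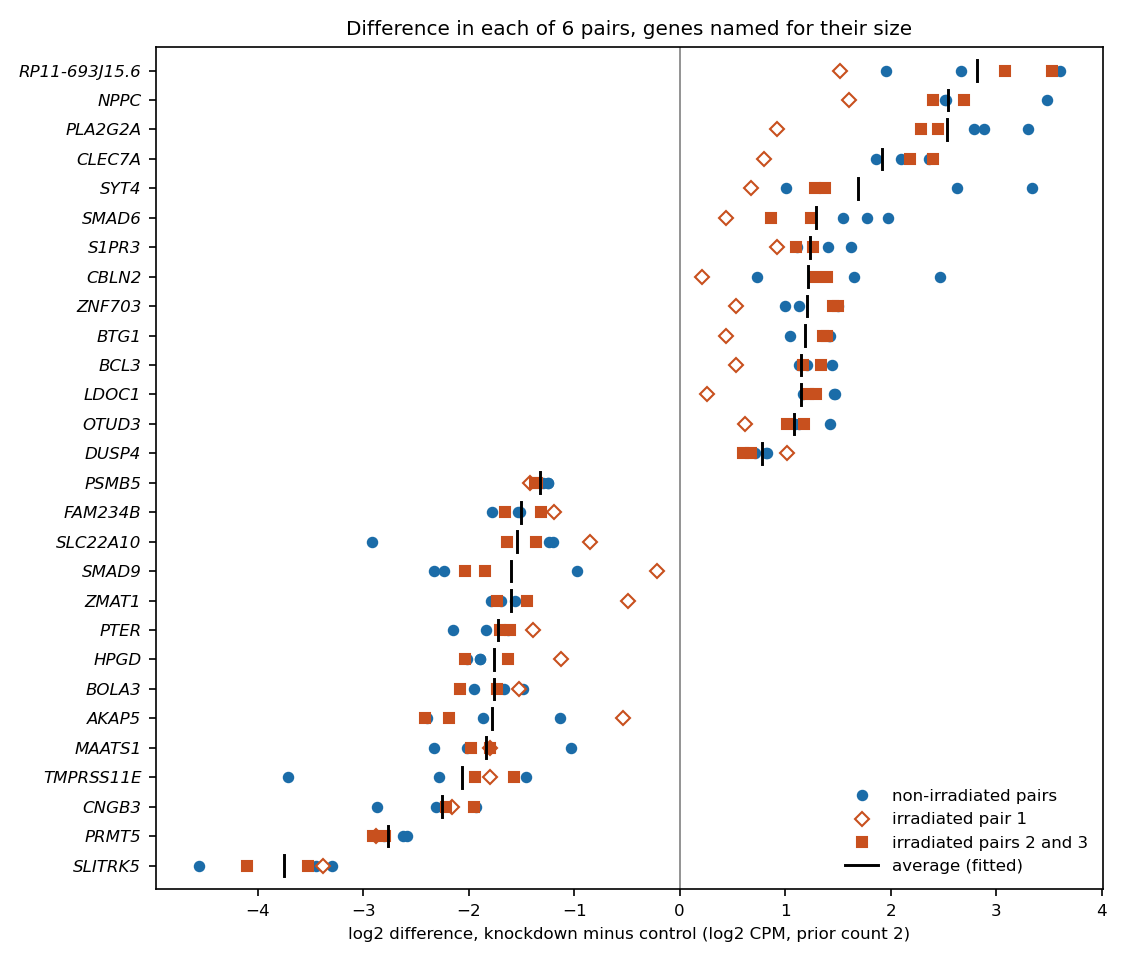
Log2 difference, knockdown minus control, in each of the 6 pairs for the genes named for their size, with the fitted average as a black bar; circles are non-irradiated pairs, filled squares irradiated pairs 2 and 3, and open diamonds irradiated pair 1. All points of a gene lie on 1 side of 0, and the open diamond is the point nearest 0 for most of the genes that rose, such as LDOC1 at 0.26.

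Of the partners of PRMT5 in the methylosome, 3 of 4 fell as well, by less than PRMT5. Of the 5 tested members, PRMT5 included, 4 were called lower with 1 sign in all 6 pairs and none higher (0 higher also at an unadjusted p under 0.05, by DESeq2 and by limma-voom), against 12.1% of all tested genes for lower calls with 1 sign. WDR77, the obligate partner of PRMT5, had 34.7, 38.5 and 54.8 CPM in knockdown and 41.8, 49.6 and 89.1 CPM in control libraries and fell by 0.39 (SE 0.06, adjusted p = 9.09e-04). Of its exon positions 36.5% overlap another gene. The adaptors COPRS and CLNS1A fell by 0.26 (SE 0.06) and 0.19 (SE 0.05). RIOK1, the other adaptor, was at 0.03 (adjusted p = 0.808), with pair differences of both signs. In a fit with no replicate block only PRMT5 stayed called in this list, and the adjusted p was 0.0793 for WDR77 and 0.488 for COPRS.

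Among 8 other arginine methyltransferases, 3 were called higher and 2 lower, and only PRMT9 and CARM1, both higher, were common. That is 62.5% called and 25% common, against 30.8% and 23.8% of all tested genes. PRMT9, which methylates a splicing factor, had 31.1, 37.4 and 63.8 CPM in knockdown and 20.1, 26.4 and 39.3 CPM in control libraries and rose by 0.60 (SE 0.08, adjusted p = 1.76e-04). CARM1 (PRMT4), a coactivator, rose by 0.21 (SE 0.06, adjusted p = 0.0191) and was not called without non-irradiated pair 2 or 3 or irradiated pair 2 (adjusted p = 0.0564, 0.0665 and 0.0783), nor without the replicate block (0.151).

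Some of the Sm proteins and of the proteins that load them on small nuclear RNAs rose by small amounts. Of 24 tested members 8 were called higher, against 15.2% of all tested genes, and none lower (0 lower also at an unadjusted p under 0.05, by DESeq2 and by limma-voom), but only 3 of the 8 had 1 sign in all 6 pairs. These 3 are 12.5% of the list, near the 11.7% of all tested genes. The list's median was 0.16, against 0.01 over all tested genes, and -0.07 in irradiated pair 1. With irradiated pair 1 left out the calls numbered 12, and without non-irradiated pair 3, irradiated pair 2 or irradiated pair 3 they numbered 5. GEMIN5, which recognises small nuclear RNAs, rose by 0.24 (SE 0.05). SMN1 and SMN2, the survival of motor neuron genes, rose by 0.24 (SE 0.06) and 0.30 (SE 0.07). These copies share 86.5% and 90.3% of their 50-base words with another gene, so their counts are uncertain. Of 31 SR proteins and hnRNPs, which steer splice site choice, 7 were called higher and 1 lower, with 4 and 1 of them common. That is 25.8% called and 16.1% common, under the 30.8% and 23.8% of all tested genes. SRSF4 rose by 0.26 (SE 0.05) and HNRNPH3 fell by 0.25 (SE 0.05). Their higher calls numbered 10 without irradiated pair 1 and 3 and 4 without irradiated pairs 2 and 3. GEMIN5, SMN1, SMN2 and HNRNPH3 were not called without the replicate block (adjusted p from 0.0597 to 0.224).

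Cell cycle genes had no common direction. Of 35 genes of G2/M and mitosis 0 were called by edgeR, against 30.8% of all tested genes. There were also 0 at an unadjusted p under 0.05 and 0 by DESeq2 or limma-voom, and the pairs went opposite ways. Their median difference was -1.01, 2.72 and 1.99 in non-irradiated pairs 1, 2 and 3 and -0.70, -1.33 and -1.25 in irradiated pairs 1, 2 and 3. DNA replication and G1/S genes were likewise highest in non-irradiated pairs 2 and 3, with 0.08, 1.22 and 0.97 in the non-irradiated and -0.65, -0.14 and -0.09 in the irradiated pairs. Of these 39 genes 1 was called higher and 1 lower, or 5.13%, against 30.8% of all tested genes. Only the lower one was common, 2.56% of the list against 23.8% of all tested genes. GMNN, the inhibitor of replication licensing, fell by 0.79 (SE 0.19, adjusted p = 0.0209). It was not called without irradiated pair 1, 2 or 3 or without non-irradiated pair 1, with adjusted p from 0.0529 to 0.0618. Common genes of other groups thus came from libraries whose cell cycle genes differed in both directions, and the part of this in their effects was not tested.

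Genes of DNA double-strand break repair were split. Of 14 tested genes of non-homologous end joining, 4 rose and 1 fell, all with 1 sign in 6 pairs, and the list's median was -0.00. The 35.7% of the list called compares with 30.8% of all tested genes called and 23.8% common. PRKDC, the catalytic subunit of DNA-dependent protein kinase, had 485, 559 and 628 CPM in knockdown and 368, 465 and 546 CPM in control libraries and rose by 0.33 (SE 0.05, adjusted p = 7.84e-04). XRCC5 (Ku80), which binds broken ends, rose by 0.27 (SE 0.06) and POLM, a gap-filling polymerase, by 0.32 (SE 0.06), while XRCC4, part of the ligase complex, fell by 0.45 (SE 0.11). In homologous recombination 2 of 27 tested genes were called higher and 3 lower, 18.5% of the list against 30.8% of all tested genes. RBBP8 (CtIP), which starts end resection, fell by 0.21 (SE 0.05) and RMI1, of the complex that dissolves crossover structures, fell by 0.26 (SE 0.06). BARD1, the partner of BRCA1, rose by 0.57 (SE 0.14), with a difference of 0.00 in non-irradiated pair 1 and of 0.42 to 1.05 elsewhere. It was not called without irradiated pair 1 (adjusted p = 0.0671). Of 18 Fanconi anemia genes the nuclease scaffold SLX4 rose by 0.47 (SE 0.07) without overlap between groups, and FAAP100 rose by 0.21 (SE 0.05). PRKDC, XRCC5, POLM, RMI1, RBBP8 and FAAP100 lost their calls without the replicate block (adjusted p from 0.0595 to 0.204).

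Targets of p53 rose in part. Of 33 tested members 12 were called higher and 2 lower, 11 and 2 of them with 1 sign in all 6 pairs, against 11.7% and 12.1% of all tested genes. The median was 0.12. By pair it was 0.34, 0.01 and -0.16 in non-irradiated pairs 1, 2 and 3 and 0.22, 0.19 and 0.19 in the irradiated pairs. TP53INP1, which promotes cell death and autophagy, had 555, 758 and 929 CPM in knockdown and 480, 544 and 685 CPM in control libraries and rose by 0.38 (SE 0.06, adjusted p = 8.15e-04). BTG2, an antiproliferative factor, rose by 0.43 (SE 0.07), TNFRSF10A, a death receptor, by 0.30 (SE 0.05) and BAX, which opens the outer mitochondrial membrane, by 0.57 (SE 0.09). CDKN1A (p21) and MDM2, the best known targets, were not called, at 0.27 (SE 0.20, adjusted p = 0.378) and 0.09 (SE 0.08, adjusted p = 0.426), with pair differences of both signs. Without the replicate block 5 members were called higher, and TP53INP1 had an adjusted p of 0.0825.

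Part of the unfolded protein response, the stress response of the endoplasmic reticulum, fell. Of 20 tested genes 9 were called lower, against 15.6% of all tested genes, and none higher (0 higher at an unadjusted p under 0.05, by DESeq2 and by limma-voom), and 6 of the 9 had 1 sign in all pairs, against 12.1% of all tested genes. EIF2AK3 (PERK), a sensor kinase of the reticulum, had 21.7, 25.2 and 26.2 CPM in knockdown and 34.1, 49.9 and 52.0 CPM in control libraries. It fell by 0.93 (SE 0.07, adjusted p = 3.49e-06) without overlap between groups. The co-chaperone DNAJC3 fell by 0.41 (SE 0.05), also without overlap, and DNAJB9, another co-chaperone, by 0.63 (SE 0.09). XBP1, a transcription factor of the response, fell by 0.66 (SE 0.12) and HERPUD1, which aids degradation of misfolded proteins, by 0.64 (SE 0.13). The main chaperone HSPA5 was at -0.07 (SE 0.08, adjusted p = 0.508). Without irradiated pair 1 there were 9 calls lower and 2 higher.

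The integrated stress response list, made of ATF4 and its targets, had the lowest median of all lists, -0.61, with 26 of 27 tested members negative. Only 7 were called, all lower, and 4 of those had 1 sign in 6 pairs (0 were called higher, at an unadjusted p under 0.05, by DESeq2 and by limma-voom as well). That is 25.9% called and 14.8% common, against 15.6% of all tested genes called lower and 12.1% common and lower. The pair medians show the spread behind this, at -0.13, -0.89 and -0.70 in non-irradiated pairs 1, 2 and 3 and 0.21, -0.98 and -1.05 in irradiated pairs 1, 2 and 3. Without irradiated pair 1, 19 were called lower, and without non-irradiated pair 3 only 2. DESeq2 called 18. SESN2, a stress-induced inhibitor of mTORC1, fell by 0.67 (SE 0.15, adjusted p = 0.0171) and was not called without non-irradiated pair 3 or irradiated pair 3 (adjusted p = 0.0569 and 0.0507). ALDH1L2, the mitochondrial formyl-tetrahydrofolate dehydrogenase, fell by 2.12 (SE 0.36), at 0.0349 to 0.386 CPM in knockdown and 0.229 to 1.82 CPM in control libraries, which is partly under the limit that a count of 0 allows. VLDLR, a lipoprotein receptor, fell by 0.47 (SE 0.13) and was not called without irradiated pair 2 (adjusted p = 0.0527) or the replicate block (0.104).

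**Figure D4:**
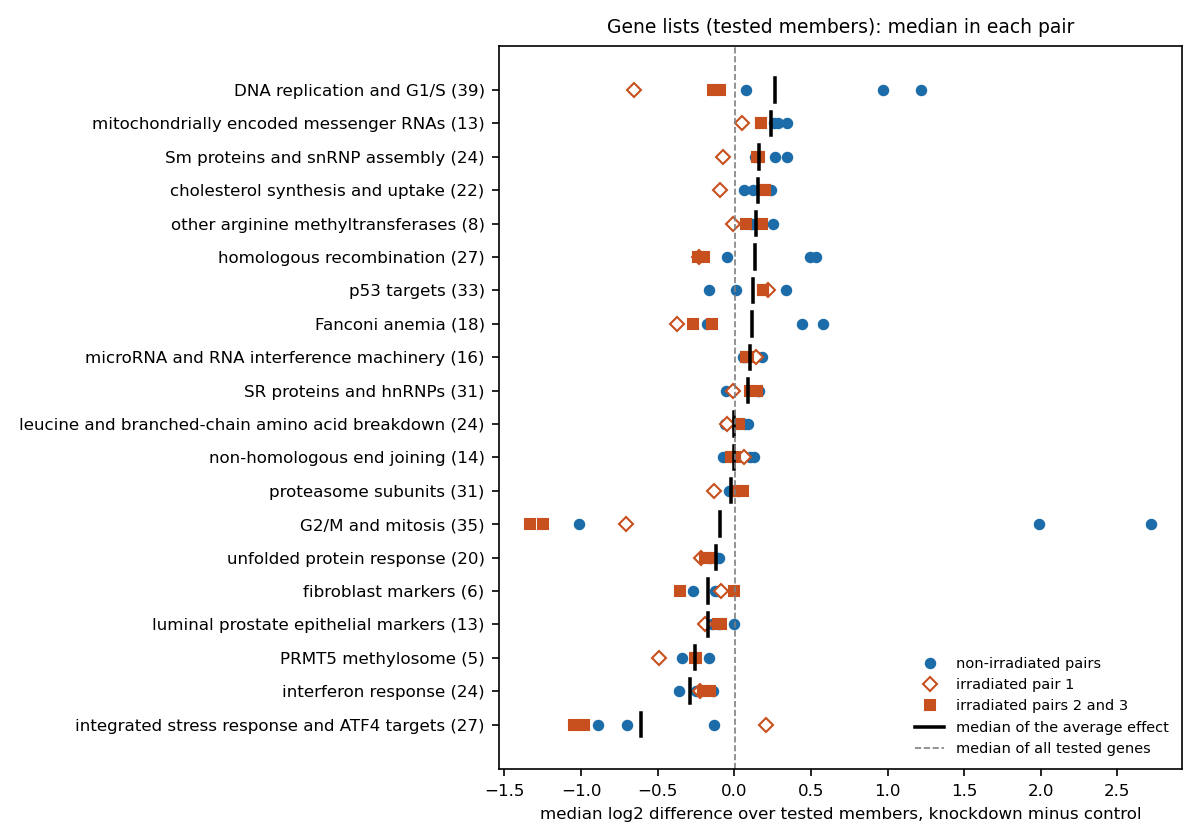
Median log2 difference, knockdown minus control, over the tested members of each list with 5 or more of them, in each pair (circles non-irradiated, filled squares irradiated pairs 2 and 3, open diamonds irradiated pair 1), with the median of the average effect as a black bar and that of all tested genes as a dashed line. The G2/M list spreads from -1.33 to 2.72 around a median of -0.10, whereas the unfolded protein response list lies between -0.22 and -0.10 in all pairs.

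Most mitochondrially encoded messenger RNAs rose in knockdown cells. Of 13 tested, 9 were called higher, all with 1 sign in 6 pairs, against 11.7% of all tested genes, and none lower (0 lower at an unadjusted p under 0.05, by DESeq2 and by limma-voom). MT-ND1, MT-CO3, MT-CO1 and MT-ND5 were not called, at 0.09, 0.13, -0.01 and -0.10. Their median was 0.24, and the pair medians ran from 0.05 in irradiated pair 1 to 0.34 in non-irradiated pair 1. MT-ND3, a subunit of respiratory complex I, had 371, 511 and 917 CPM in knockdown and 253, 397 and 644 CPM in control libraries and rose by 0.50 (SE 0.08, adjusted p = 1.15e-03). MT-ND6 and MT-ND2, of the same complex, rose by 0.66 (SE 0.11) and 0.33 (SE 0.06), but 17.9% and 43.6% of their 50-base words also occur in another gene. Calls numbered 6 without irradiated pair 3. Without the replicate block 0 of the 13 were called, with adjusted p = 0.0677 for MT-ND3.

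Proteasome subunits did not follow PSMB5. Of 31 tested, 6 were called lower and 1 higher, all common, and the median was -0.02. The 22.6% of the list that was common is near the 23.8% of all tested genes. PSMB4, another core subunit, had 179, 204 and 244 CPM in knockdown and 211, 250 and 339 CPM in control libraries and fell by 0.32 (SE 0.05, adjusted p = 6.48e-04). PSMD14, the deubiquitinase of the lid, fell by 0.26 (SE 0.05). Without non-irradiated pair 2 there were 3 calls lower, and without the replicate block only PSMB5 was called (adjusted p = 0.105 for PSMB4).

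Both subunits of methylcrotonyl-CoA carboxylase, an enzyme of leucine breakdown, moved, in opposite directions. MCCC2 had 83.7, 124 and 194 CPM in knockdown and 179, 310 and 491 CPM in control libraries and fell by 1.27 (SE 0.06, adjusted p = 2.09e-07). MCCC1 had 114, 130 and 181 CPM in knockdown and 84.8, 93.7 and 145 CPM in control libraries and rose by 0.48 (SE 0.06, adjusted p = 1.23e-04). The pair differences ran from -1.47 to -1.01 for MCCC2 and from 0.32 to 0.78 for MCCC1, although libraries of both groups overlapped. AUH, the next enzyme of the pathway, fell by 0.34 (SE 0.06). Over the 24 tested genes of branched-chain amino acid breakdown, 4 were called higher and 6 lower, 1 and 6 of them common, with a median of -0.00. That is 29.2% common, against 23.8% of all tested genes.

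Components of the microRNA and RNA interference machinery, which the hairpin also uses, rose in part. Of 16 tested, 6 were called higher, all common, against 11.7% of all tested genes, and none lower (0 lower at an unadjusted p under 0.05, by DESeq2 and by limma-voom), with a median of 0.10. DICER1, which cuts hairpins into short RNAs, had 143, 182 and 187 CPM in knockdown and 91.2, 122 and 134 CPM in control libraries. It rose by 0.58 (SE 0.05, adjusted p = 7.05e-06) without overlap between groups. TNRC6B, which links Argonaute proteins to silencing, rose by 0.40 (SE 0.05), and DGCR8, of the microprocessor, by 0.27 (SE 0.06). Neither TNRC6B nor DGCR8 was called without the replicate block (adjusted p = 0.120 and 0.208).

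Some interferon response genes fell and a few rose. Of 24 tested, 9 were called lower, all common, against 12.1% of all tested genes, and 3 higher, 1 of them common. The median was -0.29, and -0.08 with no low-count filter. IFIT2, an antiviral protein, had 1.23, 2.76 and 5.84 CPM in knockdown and 1.72, 4.47 and 13.2 CPM in control libraries and fell by 0.79 (SE 0.13, adjusted p = 9.40e-04). OASL fell by 1.38 (SE 0.25) and IFIT5 by 0.44 (SE 0.09). OASL had 0.135, 0.245 and 1.71 CPM in knockdown and 0.190, 0.508 and 6.35 CPM in control libraries. These values are partly near the limit that a count of 0 allows. Its pair differences ran from -1.84 to -0.33. IRF9, of the transcription factor that drives these genes, rose by 0.64 (SE 0.14), with 2.12 CPM on average in knockdown and 1.36 CPM in control libraries. Lower calls numbered 6 without non-irradiated pair 2 and 0 without the replicate block, with adjusted p = 0.172 for IFIT2.

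In cholesterol synthesis and uptake 9 of 22 tested genes were called higher and 2 lower, 5 and 2 of them common, with a median of 0.16. That is 31.8% common, against 23.8% of all tested genes. HMGCS1, which makes the precursor of mevalonate, rose by 0.31 (SE 0.06) and MSMO1, a sterol oxidase, by 0.35 (SE 0.06). Higher calls numbered 12 without irradiated pair 1, 2 without irradiated pair 2, 3 without irradiated pair 3, 5 without non-irradiated pair 1 or 3, and 0 without the replicate block. Of 13 luminal prostate markers 6 were called lower and 2 higher, 4 and 1 of them common, against 12.1% and 11.7% of all tested genes. SLC45A3 (prostein), a prostate transporter, had 174, 209 and 426 CPM in knockdown and 283, 344 and 606 CPM in control libraries and fell by 0.67 (SE 0.05, adjusted p = 4.51e-06). FOLH1, the prostate-specific membrane antigen, fell by 0.26 (SE 0.06) and FOXA1, a pioneer factor of androgen response, by 0.19 (SE 0.05). The count of FOLH1 is uncertain, since it shares 28.5% of its 50-base words with another gene. FOXA1 was not called without non-irradiated pair 2 or 3 or irradiated pair 3 (adjusted p = 0.0509, 0.0537 and 0.0515), and none of the 3 was called without the replicate block (adjusted p = 0.112 for SLC45A3). Lower calls of the list numbered 3 without non-irradiated pair 2 or 3. In bulk RNA, fewer cells of a type and less RNA per cell cannot be told apart. Of the scarce marker lists, the basal gene DST fell by 0.99 (SE 0.12). Of 6 tested fibroblast markers 1 was called higher and 3 lower, 1 and 2 of them common, against 11.7% and 12.1% of all tested genes. The collagen COL3A1 rose by 1.87 (SE 0.22) at 1.28 to 2.88 CPM in knockdown and 0.239 to 1.03 CPM in control libraries, while the intermediate filament VIM fell by 0.49 (SE 0.16) and the receptor PDGFRB by 0.75 (SE 0.26). VIM and PDGFRB were not called by DESeq2 (adjusted p = 0.160 and 0.183), without non-irradiated pair 2 (0.0618 and 0.0972), without non-irradiated pair 3 (0.0757 and 0.0904) or without irradiated pair 2 (0.0928 and 0.113). The same held with no low-count filter (0.0516 and 0.0636) and with no replicate block (0.626 and 0.163). VIM was also lost without irradiated pair 3 (0.136) and PDGFRB without irradiated pair 1 (0.110).

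A short sequence was found more often in the 3′ untranslated regions (UTRs) of common genes that fell. The 7-base word TTCCCTA, read on the transcript strand only, was taken from earlier work on these same data and is no independent evidence. It occurred in the longest coding transcript's 3′ UTR of 331 of 1769 common lower genes, or 18.7%, and of 138 of 1691 common higher genes, or 8.16%. Over all 12491 tested genes with such a UTR the share was 10.3%, and over genes not called 8.89%. Ranked by the difference from that share, it came first of 16384 words among the lower genes and 16383rd among the higher genes. By the ratio of these shares it ranked 3rd, and by the lowest median average effect 5th, among 15638 words in at least 100 genes. In single pairs its median ranked 34, 39 and 234 (non-irradiated 1, 2 and 3) and 231, 9 and 8 (irradiated 1, 2 and 3). Longer UTRs hold more words of any kind, so the shares were also taken by length. In the shortest, middle and longest terciles of UTR length the word was in 4.32%, 13.0% and 34.3% of common lower genes, against 1.44%, 6.95% and 22.5% of all tested genes. PRMT5 itself holds the word in its coding sequence, and the 29 bases printed for it below span an exon junction. The sequence of the hairpin is not given in the sources used here, so whether the word relates to it was not tested.

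Sites are shown for some of the genes described above, to let the flanking bases be compared, with the word in capitals (GENCODE 29 transcripts, GRCh38, 5′ to 3′). AKAP5 (chr14:64471617-64471645, plus strand), BOLA3 (chr2:74135512-74135540, minus strand), ZMAT1 (chrX:101882675-101882703, minus strand), SLC22A10 (chr11:63311133-63311161, plus strand), MCCC2 (chr5:71658395-71658423, plus strand), WDR77 (chr1:111440930-111440958, minus strand), DNAJC3 (chr13:95792272-95792300, plus strand) and SLC45A3 (chr1:205658270-205658298, minus strand) fell, and each site is in the 3′ UTR. SYT4 (chr18:43270146-43270174, minus strand) rose and holds the word in its 3′ UTR as well. Not shown are the 3′ UTR sites of TNRC6B and DGCR8, which also rose, and of ALDH1L2, SESN2 and VLDLR, which fell.
PRMT5 coding sequence: ttcccatcctcTTCCCTAttaagcagccc
AKAP5: ccagagtgcacTTCCCTAcctcacaggtt
BOLA3: tgacatcattcTTCCCTAagcagtcacca
ZMAT1: tataatgtaatTTCCCTAaatgaagttgt
SLC22A10: gaagggtttttTTCCCTAcaaccagcaag
MCCC2: gctggattagcTTCCCTActctatgctct
WDR77: catcctacatcTTCCCTAagcactgcctc
DNAJC3: ctgaatgctttTTCCCTAaaaaatgttaa
SLC45A3: gtctcaacggcTTCCCTAaccacccctct
SYT4: attatgataatTTCCCTAtttattagaag
Of the 13 genes with a 3′ UTR named for size that fell, leaving out PRMT5, 4 hold the word there, and of the 13 that rose 1 does. The largest decrease, SLITRK5, holds none in a 3′ UTR of 18007 bases, and PSMB5, CNGB3 and PTER hold none either.

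Across all genes the shift with the word was small. The median log2 fold change was -0.10 for 167 genes with 2 or more words, -0.06 for 1118 genes with 1 word and 0.01 for 11206 genes with none. By pair, genes with any word had medians of -0.08, -0.09 and -0.11 in non-irradiated pairs 1, 2 and 3 and -0.03, -0.07 and -0.07 in irradiated pairs 1, 2 and 3. Genes with none had 0.03, 0.01 and 0.02 in the non-irradiated and -0.03, 0.01 and 0.02 in the irradiated pairs. In irradiated pair 1 these medians differed least, but genes with the word had longer UTRs (median 2934 bases, against 831). In the short, middle and long UTR terciles, medians in irradiated pair 1 were -0.24, -0.10 and -0.0025 with the word. Without the word they were -0.09, -0.03 and 0.06 there. Among genes with 1 word, the median was -0.09 where the next base was A and between -0.06 and -0.04 where it was C, G or T. By the base before the word, the medians were -0.11 for A, -0.08 for C, -0.05 for G and -0.05 for T. Genes with the word only in the coding sequence had a median of -0.01. Of the genes in the shortest UTR tercile, the 60 with the word had a median of -0.23 and the 4107 without it -0.00.

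**Figure D5:**
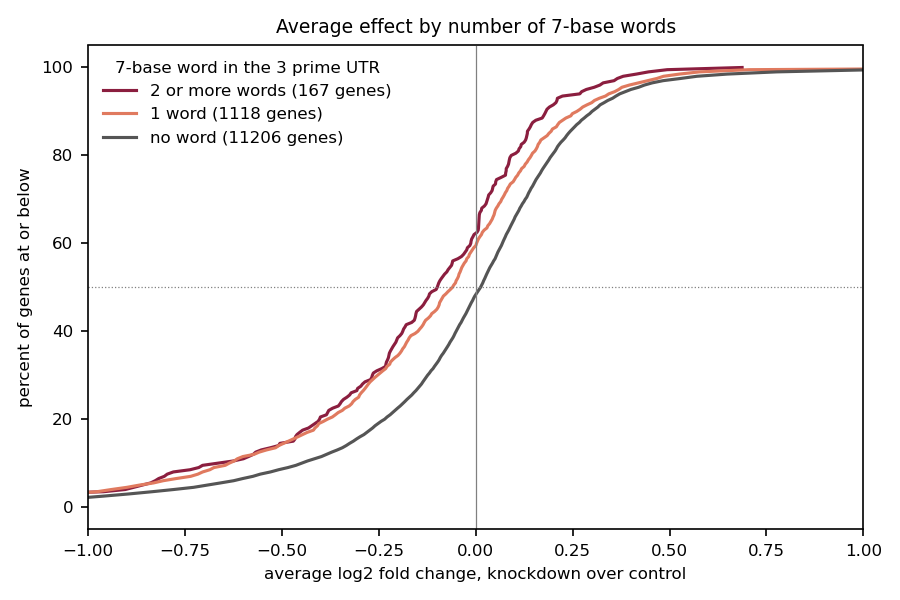
Cumulative percent of tested genes (vertical axis) at or below an average log2 fold change, knockdown over control (horizontal axis), for genes with 2 or more, 1 or no copies of the 7-base word in the 3′ UTR. The curves for 2 or more words and for 1 word lie left of that for none around the middle, at medians of -0.10 and -0.06 against 0.01.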

How the data were processed

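Polyadenylated RNA from LNCaP-shPRMT5 cells gave 12 libraries in 4 groups of 3, per the labels. The deposited counts are raw read counts per gene in 2 tables, with the layout of featureCounts output per the file headers. Per the submitters' processing notes, GRCh38 was the build, and edgeR 3.20.8, Subread 1.5.3, featureCounts and STAR 2.5 were the tools. How multi-mapping reads were treated, the strand setting and the annotation release were not given in the sources used here. For this reason, counts of overlapping or near-identical genes are treated as uncertain. These include VIM, CARM1, BTG1, TNFRSF10A, EIF2AK3 and HMGCS1, with 24.4%, 19.9%, 17.1%, 16.6%, 15.1% and 15% of exon positions in another gene.

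Counts were analysed with edgeR 4.0.16 in R 4.3.3, after a check on simulated data. Genes passed filterByExpr (minimum count 10, minimum total 15), libraries were scaled by TMM, and a robust quasi-likelihood model of 6 pairs and 1 knockdown term was fitted to all 12, with 5 residual degrees of freedom (biological coefficient of variation 0.120). Standard errors (SE) are the fold change over the square root of the F statistic. Pair differences were taken on log2 CPM (prior count 2). The replicate numbers were taken to pair the libraries, since deviations from the group means correlated within each pair, at r = 0.233, 0.255 and 0.296 in the non-irradiated and 0.775, 0.613 and 0.607 in the irradiated pairs. The highest r of a control library with a knockdown library of another number was negative in the non-irradiated pairs and irradiated pair 1. It was 0.3961 and 0.4755 in irradiated pairs 2 and 3, so the pairing is less clear there. Deviations from a group mean cancel out over the group's libraries, so a positive r within a pair lowers r with the other numbers. The negative values are therefore not separate evidence for the pairing.

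Named genes were PRMT5, the 12 common genes each way with the largest average and the 8 each way with the largest weakest pair (mean of at least 5 CPM), and up to 3 common members of each of 23 lists by p. XRCC4, BAX, CDKN1A, MDM2, XBP1, HERPUD1, HSPA5, CLNS1A, RIOK1, IRF9 and the uncalled mitochondrial genes were added after their values were seen. Some list members are not reported here. The members and lists were chosen with earlier results of these data known. The 3′ UTR of the longest coding transcript in GENCODE 29 was searched for words of 7 bases. Overlap and shared 50-base words of genes were computed from the tables' coordinates and GENCODE 29 transcripts.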

Additional observations from a re-analysis of the deposited data

Results flagged for a closer look

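In 7 of the 80 named genes 1 pair lay far from the other 5 by Dixon's criterion, which chance alone would meet in about 1 in 20 groups. In 5 of them the pair was irradiated pair 1, where the knockdown effect was smallest. The log2 difference there was 0.80 for CLEC7A, against 1.86 to 2.40 in the other pairs, 0.54 for BCL3, against 1.13 to 1.44, and 0.26 for LDOC1, against 1.17 to 1.47. For ZMAT1 it was -0.49, against -1.79 to -1.45, and for DST -0.33, against -1.23 to -1.005. TMPRSS11E differed by -3.71 in non-irradiated pair 1, against -2.28 to -1.46 elsewhere, and TNRC6B by 0.60 in non-irradiated pair 2, against 0.32 to 0.41.

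Genes of DNA replication and G1/S had positive list medians in the 3 non-irradiated pairs, with a mean of 0.75, and negative medians in the 3 irradiated pairs, between -0.65 and -0.09. This difference between irradiation states was not tested for the list.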

How the results depend on the processing

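The 5300 calls and the 4091 common genes stayed within 1.5 times of these counts with library size scaling, DESeq2, limma-voom, no low-count filter, a minimum count of 30 and, for common genes, prior counts of 0.5 and 5. DESeq2 gave the fewest of these, 4596 and 3528. Without the replicate block, which was set by replicate number, 1315 genes were called (495 higher and 820 lower). Of them 1238 had 1 sign in all 6 pairs (476 higher and 762 lower). Leaving out 1 pair at a time gave 3680 to 6056 calls, 1595 to 2971 of them higher and 2025 to 3085 lower, and 3261 to 5517 with 1 sign in the pairs left (1400 to 2724 higher and 1777 to 2793 lower). The fewest calls higher, 1595, came without irradiated pair 2. None of the 4091 common genes changed direction under these fits. Their selection for 1 sign in all 6 pairs left little room for a change. With 1 pair left out, 77.5% to 95.1% of the common genes stayed called. PRMT5 kept its call under every alternative, between -2.80 and -2.74. Of the 79 other named genes, 68 stayed called with any 1 pair left out and 33 under every alternative. The interaction gave 0 calls with library size scaling and 0 with no replicate block. The share of common lower genes with the 7-base word was 22.6% over every annotated 3′ UTR, against 13.3% of all genes. Medians of the interferon list moved to -0.08 without the filter and -0.19 at a minimum count of 30. Depth limits what can be said of genes near 1 CPM, and 6 pairs with 5 residual degrees of freedom limit small effects.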

Other observations

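Of 17 tested genes within 200 kb of PRMT5 on chromosome 14, 3 were called lower and 3 higher. Of all tested genes 15.6% were called lower and 15.2% higher. PSMB5 was at -1.32, HAUS4, a subunit of the augmin complex of the spindle, at -0.50 (SE 0.07, adjusted p = 3.18e-04 by edgeR) and RP11-298I3.4 at -0.37. SLC7A8, an amino acid transporter, was at 0.30 (SE 0.07), ACIN1, a subunit of the ASAP complex, at 0.17 and OXA1L, a mitochondrial membrane insertase, at 0.18. RBM23, the nearest gene at 1.33 kb, was at 0.02 (SE 0.04, adjusted p = 0.743). These genes were looked up after the value of PSMB5 was seen.

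Single-sign genes that the test did not call numbered 869, with a median size of 0.16 on the log2 scale.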
